A study of Mus musculus with 2 samples.

Results

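Nonsense-mediated decay is the pathway that degrades messenger RNAs whose reading frame ends early. A stop codon that lies well upstream of an exon junction leaves an exon junction complex on the RNA behind the terminating ribosome, and the factors Upf1, Upf2 and Upf3 then mark the RNA for decay. Splicing that puts such a stop into a transcript can lower the level of a gene, and genes of splicing regulators are known for doing this to their own transcripts. GENCODE, the mouse gene annotation, gives the type nonsense_mediated_decay to transcripts whose coding sequence ends in this way, from their structure and not from a measurement of decay.

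The transcripts described here are those of that type in GENCODE M21 that had at least 1 TPM (a transcript level corrected for length and scaled to the same total in each library) in both deposited mm10 transcript tables. They were selected on these TPM values, so their levels are a description and were not tested. Of 101510 quantified transcripts that M21 annotates, 4687 had the type and 1556 passed the rule, in 1232 host genes. The remaining 3131 stayed below 1 TPM in at least 1 library. The share that passed, 33.2%, was near the 33.5% of all annotated transcripts that reached 1 TPM in both libraries.

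The tissue, taken at embryonic day 14, was the central nervous system of male and female C57BL/6J littermates, which were pooled. It forms 1 group with 2 biological replicates, called replicate 1 and replicate 2, from separate biosamples under a common donor identifier, with no genotype, treatment or other condition. The libraries hold poly(A)+ RNA after ribosomal RNA was removed and were read from both ends with the strand kept, so RNAs without a tail are under-represented. A single group gives no contrast to test, and values are given for replicate 1 and then replicate 2.

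Total expected counts were 102727538 and 138440954, and transcripts of the type held 1.73% and 1.80% of them. Markers of neurons summed to 3354 and 3608 TPM and those of neural progenitors to 1850 and 2075 TPM, with all 4 of each above 1 TPM in both libraries. Markers of other cell types and tissues were present too. Those of endothelium summed to 278 and 255 TPM and those of microglia and leukocytes to 50.5 and 57.4 TPM, which was close, while others differed between the libraries by more. Cartilage markers summed to 640 and 82.3 TPM, skeletal muscle markers to 381 and 7.54 TPM, skin epithelium markers to 129 and 14.0 TPM, fibroblast and meningeal markers to 876 and 363 TPM, and red blood cell markers to 10507 and 5150 TPM.

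The early stops of 11 members that recur below are shown as the 30 bases that end in the stop codon, from the GENCODE M21 transcript sequences, with the stop codon in capitals. The first 6 are members in which the stop lies in an exon that the leading coding transcript of the gene lacks.
Srsf6-201: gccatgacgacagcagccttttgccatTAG
Srsf4-203: gtaacccggttgtctcatgccccagctTAG
Srsf11-206: gctgaagttcttttccctggttcagccTGA
Dhx9-209: agattgagtgctgactttaagcctggcTGA
Dnajc5-204: ctgcagtctgatgaaaggggagggcacTGA
Kif21b-204: ataaagggccgcgccaccaccctgcccTGA
Rbmx-205: tacagagattcgtatgagagttatggtTGA
Rpl12-201: gggtctgtctccgaagaaagttggcgaTGA
Cbx1-204: ggagagctcatgttcctgatgaaatggTGA
Cdk9-208: gagaatgagaaggagggggagctcaacTAA
Ppia-201: caaagacagcagaaaactttcgagctcTGA

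On mm10, the stop codon of Srsf6-201 lies at chr2:162932964-162932966 on the plus strand, 534 nucleotides before the last exon junction of the transcript. Those of the other members with an extra exon are Srsf4-203 at chr4:131884388-131884390 (plus strand), Srsf11-206 at chr3:158024209-158024211 (minus strand), Dhx9-209 at chr1:153476520-153476522 (minus strand), Dnajc5-204 at chr2:181548934-181548936 (plus strand) and Kif21b-204 at chr1:136173569-136173571 (plus strand). The stop of Dnajc5-204 is 64 nucleotides before the last junction and that of Kif21b-204 is 80 nucleotides before it. Where the members differ by a splice site, the stops are those of Rbmx-205 at chrX:57385217-57385219 (minus strand), Rpl12-201 at chr2:32962594-32962596 (plus strand), Cbx1-204 at chr11:96802824-96802826 (plus strand) and Cdk9-208 at chr2:32710780-32710782 (minus strand). In Ppia-201 the stop at chr11:6418241-6418243 (plus strand) ends 164 nucleotides from the 5′ end of the RNA. TGA was the stop of 913 of the 1555 members with an annotated stop codon (58.7%), TAA of 336 and TAG of 306. Among 19760 protein-coding transcripts that passed the same TPM rule, TGA made up 50.8% of the stops.

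Together the members summed to 16162 TPM in replicate 1 and 17024 TPM in replicate 2, which was 1.71% and 1.80% of the TPM of all annotated transcripts (mean 1.76 ± 0.0597%, SD, n = 2). Retained-intron transcripts picked by the same rule held 6.77% and 6.58%, and protein-coding transcripts held 79.7% and 79.8%. Most members were low. The median was 4.03 and 4.14 TPM, and 352 and 355 members reached 10 TPM. The 15 most abundant members held 24.3% and 24.8% of the summed TPM.

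Ppia, which encodes the peptidyl-prolyl isomerase cyclophilin A, stood far above the others. Its member Ppia-201 (chr11:6415870-6419815) had 1323 and 1383 TPM, 8.19% and 8.12% of all member TPM. Ppia and several hosts that follow, among them Rpl12 and Eef1b2, have near-identical processed copies in the genome that can share reads, so these levels are uncertain. Rpl12-201, from a gene for a protein of the large ribosomal subunit, had 320 and 301 TPM. Eef1b2-205, from the gene for a nucleotide exchange subunit of elongation factor 1, had 326 and 285 TPM.

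The next members came from genes with varied roles in the cell. Wsb1-205, of a substrate receptor of a ubiquitin ligase, had 293 and 249 TPM. Ddx5-208, of an RNA helicase with roles in splicing and transcription, had 204 and 301 TPM. Hspa5-204, of the chaperone BiP of the endoplasmic reticulum, had 251 and 181 TPM.

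Cdk4-208, of a kinase that drives cells into the cell cycle, had 165 and 226 TPM. Hnrnpu-206, of a nuclear RNA-binding protein, had 180 and 202 TPM, and Pabpn1-209, of the nuclear poly(A)-binding protein, had 127 and 172 TPM. Of these 15 only Ywhae-203, of the adaptor protein 14-3-3 epsilon, differed by more than 2-fold between the libraries, with 54.7 and 225 TPM. The plot of the most abundant members shows both libraries for each.

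**Figure D1:**
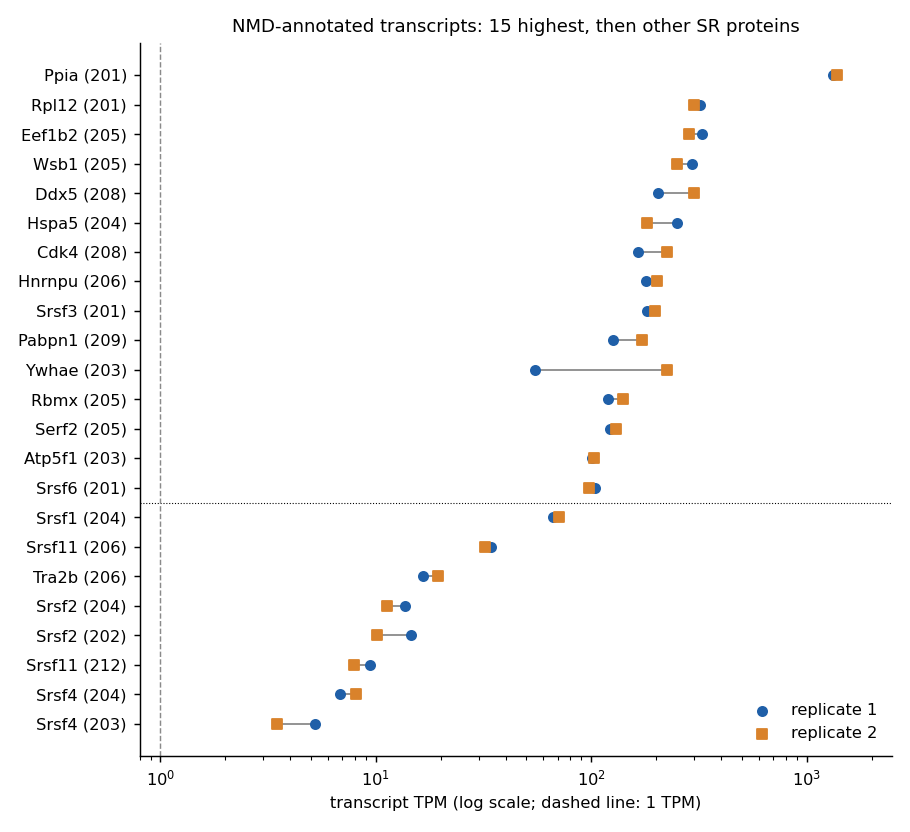
TPM of the 15 NMD-annotated transcripts with the highest mean (above the dotted line) and of the other NMD-annotated transcripts of SR protein genes (below it), on a log axis, with 1 point per library joined by a line and GENCODE transcript numbers in brackets. Ppia-201 lies at 1323 and 1383 TPM, and Ywhae-203 has the widest gap between the libraries, 54.7 against 225 TPM.

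The share of its gene that a transcript holds is given in the tables as IsoPct, the percent of the gene's TPM. Members usually held a small share of their host. The median IsoPct was 10.04 in replicate 1 and 10.3 in replicate 2, with quartiles of the mean over both at 4.43 and 21.6. Retained-intron transcripts had a median of 7.68 and protein-coding transcripts of 49.0. The median host gene had 49.98 and 51.6 TPM. The rule sets a level and not a share, so a transcript with a small share of its gene passes only where the gene is abundant.

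Of the members, 436 had a mean IsoPct below 5 and 1135 below 20, while 99 (6.36%) had at least 50. Among all transcripts that passed the TPM rule 35.4% had an IsoPct of at least 50, among retained-intron transcripts 1.70%, and among protein-coding ones 49.3%. A single member was found in 991 hosts, a pair in 184 hosts, and 3 or more in 57 hosts, with the most, 8, in Tmem234. Summed over the members of a host, the median was 14.0% and 14.5% of the gene's TPM.

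**Figure D2:**
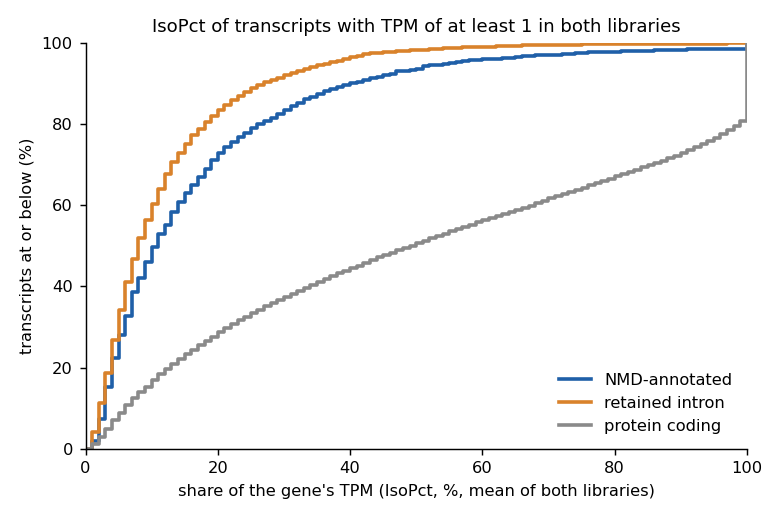
Cumulative percent of transcripts (y) with a mean IsoPct at or below the value on x, for NMD-annotated, retained-intron and protein-coding transcripts with at least 1 TPM in both libraries. The NMD-annotated curve lies between the others, with 72.9% of its transcripts below 20%.

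The members with the highest shares were for the most part transcripts whose model changed between annotations or that span neighbouring genes. The tables were made with GENCODE M4, and 117 members have another length there than in M21. Of the 25 members with an IsoPct of 100, 13 are such cases and 11 are readthrough transcripts, which join exons of neighbouring genes. Among those of changed length were Gabra2, a subunit of the GABA-A receptor, at 10.6 and 12.2 TPM, Mrpl32, a protein of the mitochondrial ribosome, at 35.3 and 38.6 TPM, and Syt16, a synaptotagmin, at 26.4 and 28.4 TPM. Gm20716, a readthrough gene, had 25.1 and 29.6 TPM. For these transcripts the M21 type is attached to a model that differs from the one quantified, or the gene consists of the readthrough alone, so an IsoPct of 100 does not describe a choice between transcripts.

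Another 16 members belong to a different gene in M21 than in the tables. Hnrnpu-206 is the main one. It held 88.8% and 88.5% of the gene it was assigned to in the tables, but 51.1% and 50.1% of the summed TPM of the transcripts that M21 gives to Hnrnpu. Few junction reads were listed on its own introns (given below).

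Some members held the larger share of their gene on a model of unchanged length and had junction reads of their own (described below). After leaving out readthrough transcripts, changed lengths and hosts under 10 TPM on average, 33 members with an IsoPct of at least 50 remained, and 12 of them had every intron of their own read in both fields. Rbmx-205 held 55.4% and 55.1% of Rbmx, whose RNA-binding protein regulates splicing. Cbx1-204 held 52.6% and 55.6% of Cbx1, the gene for heterochromatin protein 1 beta. Jmjd4-204 held 57.5% and 58.5% of its gene, and Bak1-201, of a protein that permeabilises the mitochondrial membrane in apoptosis, held 63.1% and 66.3%. At the junction, the own introns of these members took between 33.1% and 66.8% of the reads at their ends. In others of the 12 that share was far lower, with 0.256% for Stt3a-202, 2.64% for Commd2-201, 3.57% for Ppia-201, 5.03% for Nkiras1-201 and 5.19% for Tsr2-203. Of all 43 members with an IsoPct of at least 50 for which a share at the junction was found, 7 reached 50% there. The share at the junction is of the reads at the ends of an intron and not of the gene, so the measures differ. Jmjd4-204, Bak1-201, Stt3a-202, Commd2-201, Nkiras1-201 and Tsr2-203 were named after their values were seen.

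Of the members, 388 fell into 18 listed classes of genes and 1168 into none of them. Splicing factors other than the SR and hnRNP families held 4.75% and 4.59% of member TPM in 52 members. Genes of hnRNPs, which package nuclear RNA and often repress exons, held 3.25% and 3.38% in 16 members, and SR protein genes, whose proteins promote exon inclusion, held 2.79% and 2.69% in 10 members.

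Together these splicing classes held 10.8% and 10.7% of member TPM (mean 10.7 ± 0.0886%, SD, n = 2). The same genes held 3.16% and 3.39% of the TPM of all expressed protein-coding genes. Members were found in 52 of their 143 expressed genes (36.4%). Over all 13641 protein-coding genes with at least 1 TPM in both libraries, 9.05% held a member.

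By that count SR protein genes stood highest, with a member in 7 of 13 (53.8%), followed by other splicing factors with 35 of 100 (35.0%), hnRNPs with 10 of 30 (33.3%) and chromatin regulators with 30 of 154 (19.5%). The annotation is uneven between classes, and 8 of the 13 SR protein genes but 2622 of all 13641 expressed genes (19.2%) have any quantified transcript of the type. Of the expressed genes that have one, 47.1% held a member. The rule also lets transcripts with a small share of their gene pass more easily where the gene is abundant. The median IsoPct of members was 6.8 for SR protein genes, 3.7 for hnRNPs and 4.2 for other splicing factors. It was 8.8 for chromatin regulators and 10.7 for members in no listed class.

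Translation factors held 3.50% and 2.97% of member TPM in 14 members, below other splicing factors and above SR protein genes in both libraries. Their place above SR protein genes rests on Eef1b2-205, with 326 and 285 of the 565 and 505 TPM of the class. Only 1 junction read was listed on its own intron. Cytoplasmic ribosomal protein genes held 2.80% and 2.41% in 7 members. The ribosomal protein genes took 11.3% and 11.6% of the TPM of expressed genes, and 7 of 82 held a member (8.54%). Genes of the cytoskeleton and of motor proteins took 6.13% and 6.49% of gene TPM but 0.984% and 1.01% of member TPM, with a member in 11 of 189 genes (5.82%). The proteasome and ubiquitin system, with 49 members, held 2.56% and 2.52%, and kinases and phosphatases, with 48, held 2.23% and 2.28%. The 5 members of RNA helicase genes held 1.76% and 2.58%, most of it in Ddx5-208 and in Ddx5-205, which had 64.1 and 119 TPM. No junction read was listed on the own intron of Ddx5-205 (own introns are described below). RNA helicase genes took 0.322% and 0.359% of the TPM of expressed genes, and 4 of 48 held a member (8.33%). Dhx9-209, of a helicase that unwinds nuclear RNA, had 8.47 and 10.1 TPM.

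**Figure D3:**
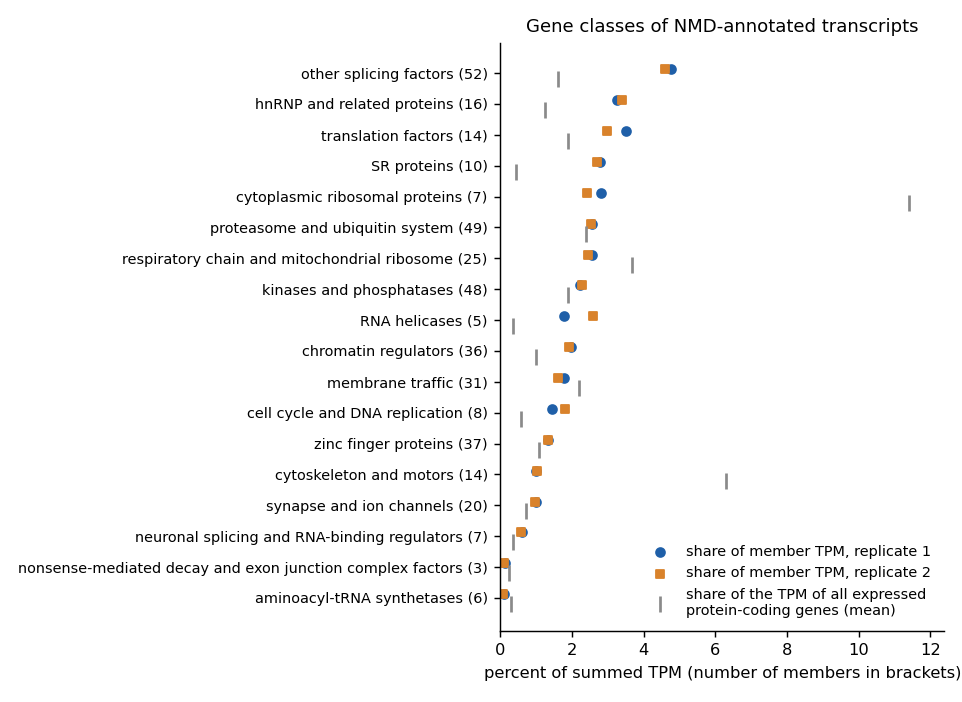
Percent of the summed TPM of NMD-annotated transcripts held by each listed gene class in replicate 1 (circles) and replicate 2 (squares), with the share of the same class in the TPM of all expressed protein-coding genes as a grey bar (mean of both libraries). SR proteins, hnRNPs and other splicing factors lie to the right of their grey bars, and ribosomal proteins and the cytoskeleton lie to the left.

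Among SR proteins, Srsf3-201 had 181 and 198 TPM (49.3% and 49.1% of Srsf3) and Srsf6-201 had 104 and 97.2 TPM (27.9% and 24.4% of Srsf6). The model of Srsf3-201 is 1919 nucleotides long in the tables and 2594 in M21. Srsf1-204 had 66.3 and 71.1 TPM, Srsf11-206 had 34.1 and 32.1 TPM, and Tra2b-206 had 16.5 and 19.4 TPM. The transcripts of Srsf2 and Srsf4 and the other one of Srsf11 lay between 3.46 and 14.6 TPM, with Srsf4-203 the lowest at 5.22 and 3.46 TPM. The extra exon that holds the stop is 456 nucleotides long in Srsf3-201 and 268 in Srsf6-201.

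In the hnRNP class, Hnrnpu-206, whose assignment to another gene is given above, held 180 and 202 of the 525 and 576 TPM. Tardbp-228 of TDP-43 had 92.3 and 102 TPM (19.1% and 18.3% of its gene) and Hnrnpdl-201 had 87.5 and 93.6 TPM (18.6% and 17.7%). TDP-43 is known to bind its own RNA and lower its level. Among other splicing factors Srrm2-204, of a scaffold protein of nuclear speckles, had 72.7 and 72.6 TPM, and Son-212, of another speckle protein, had 47.5 and 48.5 TPM.

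RNA-binding regulators known from neurons contributed 7 members. Qk-202, of the RNA-binding protein Quaking, had 44.7 and 49.0 TPM and 68.9% and 65.8% of its gene, on a model that is 4658 nucleotides long in the tables and 5832 in M21. Khdrbs1-202, of the splicing regulator Sam68, had 26.6 and 24.03 TPM (32.5% and 29.0%), and Celf2-228 had 9.18 and 11.2 TPM (8.32% and 7.48%).

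Genes of the decay pathway itself held members at a share near that of all expressed genes. Of 31 expressed genes of decay and exon junction complex factors, 5 have a quantified transcript of the type and 3 held a member (9.68%). Gspt2-202, of a translation release factor, had 7.06 and 6.10 TPM, Smg6-202, of the endonuclease that cuts the RNA near the early stop, had 9.01 and 7.13 TPM, and Smg5-202, of a factor that helps recycle Upf1, had 2.69 and 4.49 TPM.

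Genes of synapses and ion channels held 20 members with 0.985% and 0.955% of member TPM. Dlg4-205, of the postsynaptic scaffold PSD-95, had 23.1 and 17.3 TPM, and Gria2-203, of an AMPA receptor subunit, had 16.7 and 29.2 TPM. Dlg4-205 is 729 nucleotides long in the tables against 2888 in M21. Of cytoskeletal and motor genes, Kif21b-204, of a kinesin of neurons, had 42.8 and 45.8 TPM (42.6% and 36.9% of its gene), and its extra exon of 180 nucleotides holds the stop. Stx1a-204, of the synaptic fusion protein syntaxin 1A, had 23.7 and 16.6 TPM.

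The structures of the members followed the definition of the type. In 1548 of 1556 the stop codon ended more than 50 nucleotides before the last exon junction, with a median distance of 395 nucleotides. Among protein-coding transcripts that passed the TPM rule the share was 0.481%. Both are part of how the types are assigned and are given only as a check of the annotation. The median member had 8 exons, a coding sequence of 330 nucleotides and 3 junctions after the stop. The start of the coding sequence is marked as not found in 414 members (26.6%), so for these the coding length is a lower limit.

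Each member was set against the coding transcript of its gene with the highest TPM to describe how they differ. A member with several differences was counted only under the first that applied in a fixed order. A shared stop came first, then an extra exon, a skipped exon and an intron in the last exon. A retained intron, an alternative splice site and an alternative first or last exon followed. An alternative splice site was the difference in 504 members (32.4%) and a skipped exon in 376 (24.2%). An extra exon that holds the stop was found in 274 members (17.6%), and an extra exon with the stop elsewhere in 135 (8.68%). A retained intron was the difference in 58 members, which held 4.20% and 4.46% of member TPM, with Ddx5-208 and Ppp1cc-203 among them. The skipped sequence was no multiple of 3 nucleotides in 347 of the 376 members with a skipped exon (92.3%). The 274 extra exons that hold the stop had a median length of 110 nucleotides, from 19 to 1310, and 175 of them (63.9%) were no multiple of 3. The type requires an early stop, which a shift of the reading frame can bring, so the share for skipped exons follows in part from the annotation. The same shares over other exons were not computed, so neither value is a result about the members.

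The median IsoPct was 9.39 for alternative splice sites, 11.6 for skipped exons and 8.68 for extra exons with the stop. Members whose stop is that of the coding transcript, with an added intron in its last exon behind the stop, had a median IsoPct of 18.5 over 32 members. Hnrnpdl-201 and both Srsf2 transcripts belong to them, and so does Sema4g-202, of a semaphorin, at 43.3 and 43.1 TPM.

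A member can be told from the other transcripts of its gene only where it has bases or junctions that they lack. Of the 1556 members, 861 have no base of their own in their gene, 312 have no intron of their own, and 225 have neither. The deposited credibility interval of the TPM, which measures how well reads could be divided between transcripts, had a median width of 39.5% of the TPM for members, 34.0% for retained-intron and 16.3% for protein-coding transcripts. Its lower bound was at least 1 TPM in both libraries for 1287 members (82.7%) and for 91.0% of protein-coding transcripts. The widest intervals were those of Eif4a2-210, Slc18b1-202, Ikbkb-203, Adamts10-204 and Knstrn-209, between 199% and 229% of their TPM.

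The mm9 junction table, with reads of the same RNA in 2 fields, gave a second measure that the rule had not used. It lists only junctions with at least 1 read, and its fields cannot be matched to the replicate numbers. Of the members, 1101 have the same exon lengths in Ensembl 65 on mm9. M21 transcripts that were not quantified were left out of the comparison of introns. On that basis, 830 of the 1101 have an intron used by no other quantified M21 transcript and no other Ensembl 65 transcript. Every such intron was read in both fields for 601 members (72.4%). The share was 80.9% over all transcripts that passed the TPM rule and had such an intron, 85.3% for protein-coding and 66.9% for retained-intron ones. For NMD-annotated transcripts below the TPM rule it was 27.7%.

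Where a member has several own introns, its reads and shares are means over them. The median member had 32.0 reads for each own intron, against 110.0 for protein-coding transcripts, or 9.39 and 18.3 reads for each TPM. Among the reads that use either end of such an intron, the own intron took a median of 4.18% in members, with quartiles at 0.694 and 14.6%, and of 57.6% in protein-coding transcripts. An intron whose ends no other read junction uses takes 100% at any level, as that of Khdrbs1-202 did with 138 reads. The share is thus not a share of the gene, as IsoPct is. How often this occurs in each type was not tested. The median IsoPct of the same 830 members was 9.73. Across 817 of them the share at the junction and the IsoPct had a Pearson r of 0.215 and a Spearman rho of 0.176, a description over transcripts that share libraries and genes.

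Junction reads for each TPM were fewer in members with higher TPM. Of 505 members with 1 to 5 TPM on average, every own intron was read in both fields in 74.3%, with a median of 12.9 reads for each TPM. The median was 5.82 reads for each TPM in 249 members with 5 to 20 TPM and 0.734 in 53 members with 20 to 50 TPM. Of the 23 members with at least 50 TPM, every own intron was read in both fields in 11 (47.8%), with a median of 4 reads for each own intron or 0.0515 for each TPM, and 8 had no read listed. Protein-coding transcripts with at least 50 TPM had all own introns read in 91.6% of 806 cases, with a median of 1624 reads for each own intron.

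Among the 15 most abundant members, 13 have an intron of their own, and 6 of these had no read listed on it, namely those of Hspa5, Pabpn1, Serf2, Ywhae, Cdk4 and Atp5f1. Eef1b2-205 had 1 read, Ppia-201 had 4 reads and Wsb1-205 had 23. Hnrnpu-206 had a mean of 10 reads on its 2 own introns, with 1 on the one read less. These introns took 2.00% of the reads at their ends on average. The own intron of Wsb1-205 took 0.219% of the reads at its ends. Ppia, Rpl12 and Eef1b2 are hosts whose reads can also align to near-identical copies, and the part of that in these counts was not tested. Members without a listed read held 20.6% and 22.6% of the TPM of the 830 members and had a median IsoPct of 14.6, against 9.19 for members with every own intron read.

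Other members had ample reads. Rbmx-205 had a mean of 2960 reads on its 2 own introns, with 1602 on the one read less, and these took 66.8% of the reads at their ends on average. Srsf6-201 had 1368 reads on its intron, which took 29.7%. Sema4g-202 had a mean of 1272 reads (48.7%), but one of its 2 own introns had 13 reads. Dnajc5-204, of the synaptic vesicle chaperone cysteine string protein, had a mean of 1042 on 2 own introns (29.2%), and Slx1b-202, of a subunit of a DNA repair nuclease, had 1022 (59.98%). Cbx1-204 had 954 reads (33.1%) and Cdk9-208, of the kinase that releases paused RNA polymerase, had 932 (44.2%).

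Rpl12-201 had 564 reads on its own intron, which took 72.2% of the reads at its ends. Of the 10 SR protein members, 6 have an own intron, and in all 6 every own intron was read in both fields. The others, Srsf3-201, Tra2b-206 and both Srsf2 transcripts, could not be checked in this way. The own intron of Srsf1-204 took 0.446% of the reads at its ends, with 40.0 reads, and that of Srsf11-206 took 17.4%, with 58.0 reads. Of 22 members of other splicing factors, 20 had every own intron read.

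**Figure D4:**
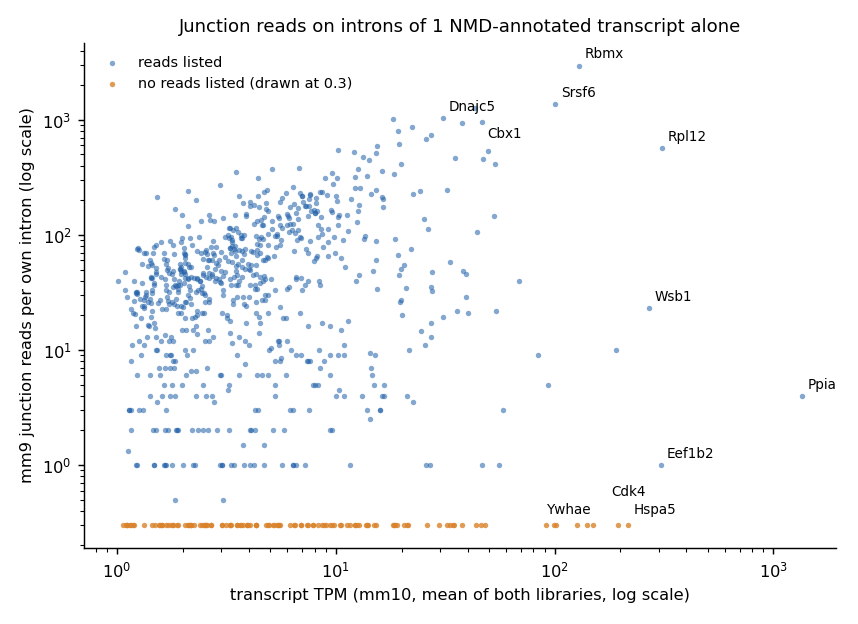
Reads per own intron in the mm9 junction table (y, summed over both fields, log axis) against mean TPM on mm10 (x, log axis) for the 830 NMD-annotated transcripts with an intron used by no other transcript. Members with no listed read are drawn at 0.3. Rbmx-205 and Srsf6-201 lie at the top, and Cdk4-208, Ywhae-203 and Hspa5-204 have no listed read.

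The annotation's own support level, 1 being the best, was 1 for 655 members (42.1%), 2 for 162, 3 for 267 and 5 for 472 (30.3%). Of the members that have an own intron, every one was read in 74.1% at level 1, 78.6% at level 2, 80.9% at level 3 and 62.9% at level 5.

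Between the libraries the members' values were close. On the log2(TPM + 1) scale the median absolute difference was 0.18, against 0.16 for protein-coding transcripts, and the median absolute difference in IsoPct was 1.15 points, against 1.27 points. Members had lower medians, 4.14 against 9.28 TPM and an IsoPct of 10.2 against 49.0. The scale thus narrows their differences more, and a point of IsoPct is a larger part of their share. Of the 1556 members, 12 were at least 2-fold higher in replicate 2 and 6 at least 2-fold lower, on the log2(TPM + 1) scale. Over all transcripts that passed the TPM rule 0.527% were as much higher and 1.42% as much lower.

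Members of collagen genes were among the lower ones, and their hosts were lower with them. Col11a1-204 had 24.98 and 6.21 TPM and Col11a1 as a whole 83.3 and 19.5 TPM, so its IsoPct was 29.96 and 31.8. Col16a1-209 had 10.4 and 3.53 TPM and Col27a1-206 5.72 and 1.12 TPM, with IsoPct values of 13.8 and 12.9 for Col16a1-209 and of 17.6 and 16.4 for Col27a1-206. The cartilage markers given above were lower in replicate 2 by more than the members were, and their part in these values was not tested. In bulk tissue, fewer cells of a type and less RNA in each cell cannot be told apart.

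Among the higher members, Ywhae-203 had 5.85% and 19.2% of Ywhae, which had 936 and 1173 TPM, and it is a member whose own intron had no listed read. Cct4-203, of a subunit of the cytosolic chaperonin, had 21.7 and 86.5 TPM, or 15.7% and 40.4% of its gene. Its own intron had 22.0 reads, 0.934% of the reads at its ends. Dlx1-204, of a homeobox factor of forebrain interneurons, had 18.3 and 50.3 TPM while its gene had 71.6 and 144 TPM. No read was listed on the own intron of Dlx1-204. Kdm5d-204, of a histone demethylase gene on the Y chromosome, had 1.69 and 5.51 TPM, and its gene had 9.84 and 25.9 TPM in these pools of both sexes.

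**Figure D5:**
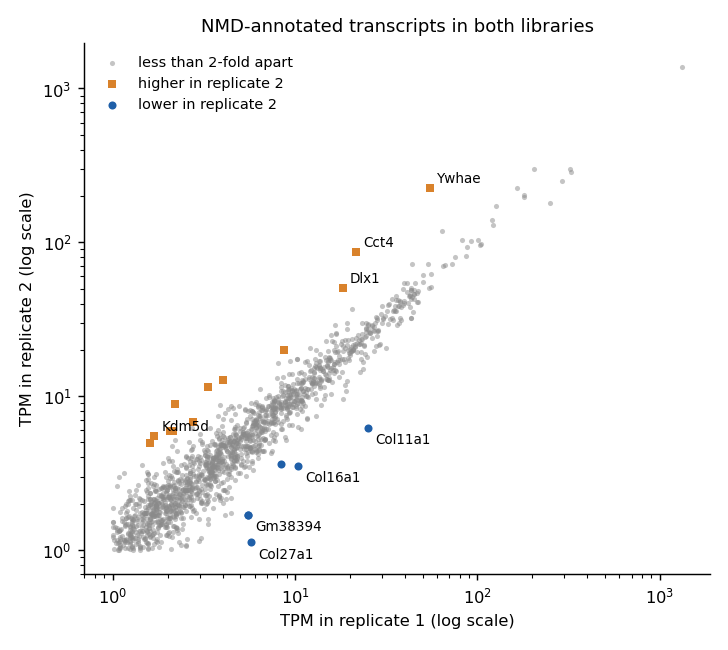
TPM of each NMD-annotated transcript in replicate 1 (x) and replicate 2 (y), both on log axes. The 12 members at least 2-fold higher in replicate 2 are orange squares, the 6 at least 2-fold lower are blue circles, and the other members are grey.

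IsoPct differed by at least 20 points in 4 members (0.4% of all transcripts that passed the TPM rule did so). Gm38394-202 had 82.9% and 20.8% of a gene at 6.65 and 8.15 TPM, and Chadl-203 had 21.2% and 61.7% of a gene at 17.6 and 8.92 TPM. The credibility intervals of Gm38394-202 overlapped between the libraries, at 1.56 to 5.91 TPM and 0.340 to 5.22 TPM. Their width was 183% of its TPM, against 32.4% for Chadl-203, so the share of Gm38394-202 is poorly resolved. The other members that far apart were Cct4-203 and, in a gene at 2.25 and 3.49 TPM, Rbm20-201 with 69.2% and 89.2%. Rad51d-204, Slc35f6-204, Rabl3-203 and Dbndd2-206 were lower in replicate 2 by 11.4 to 17.01 points, and Slc35f6-202 and Fbxo17-202 were higher by 15.1 and 14.9 points. The Slc35f6 members divide the TPM of the same gene, at 26.9 and 25.8 TPM, so their opposite changes are not independent. No read was listed on the own intron of Slc35f6-202 or Rad51d-204, and 2 reads on that of Slc35f6-204. The intervals of Slc35f6-202 and Rad51d-204 were 133% and 95.8% of their TPM wide. Ywhae-203, given above, was higher by 13.4 points.

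At the threshold of the rule, the members just inside were Becn1-214 with 1.08 and 1.00 TPM, Gorab-203 with 1.07 and 1.00 TPM, and Jmjd6-204 with 1.00 and 1.22 TPM. Those just outside were Fbxl21-205 with 0.99 and 1.20 TPM, Chtf18-207 with 0.99 and 1.02 TPM, and Ncstn-204 with 1.75 and 0.98 TPM.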

How the data were processed

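Per the labels, 2 biological replicates of embryonic day 14 mouse central nervous system were sequenced as stranded paired-end libraries, and the replicate numbers come from the labels. Per the text deposited with the tables, the mm10 values were made with GENCODE M4. Which aligner and which quantifier made them is not given in the sources used here. The deposited expected counts are estimates per transcript, the deposited TPM and FPKM are scaled by effective length, and the deposited percent column (IsoPct) divides a transcript's TPM by that of its gene. On mm9 the authors deposited junction read counts and Ensembl 65 exons. The RPKM, exon and junction fields there carry no replicate number.

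Transcripts were matched to GENCODE M21 by stable identifier; 2129 were not matched and were not used. The type of a member is that of M21, and 434 members have the same transcript version in both. The members, the gene and marker lists and the alternatives were chosen with earlier results of these data known. Members are named by highest TPM, highest IsoPct in hosts with at least 10 TPM, highest TPM within each gene class, largest IsoPct differences at a mean expected count of at least 50, nearness to the threshold and width of the interval. Those with the most junction reads, or 2-fold apart between libraries, were added after their values were seen. A host is expressed at 1 TPM in both libraries. Class shares use the genes of M21. Ratios between libraries use log2(TPM + 1), which understates changes of low transcripts. Each member was compared with the coding transcript of highest mean TPM in its gene. An own intron is one that no other quantified M21 transcript and no other Ensembl 65 transcript uses. M21 transcripts that were not quantified may use it. The comparison of structures was tested on simulated transcripts and recovered 14 of 14. With 1 group of 2 libraries no test was run, and p-values would measure only the spread between these samples. Where an mm10 expected count is 0, up to 3 reads are compatible with it (0.0292 and 0.0217 CPM in replicates 1 and 2), for counting error only. These CPM values do not apply to the mm9 junction reads. Python 3.11.15, pandas 2.3.3, numpy 2.4.6 and matplotlib 3.10.9 were used.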

Additional observations from a re-analysis of the deposited data

How the results depend on the processing

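Of 74 recomputed values, 38 stayed within 1.5 times a count or within the SD between replicates of a share or median, 36 moved, and none changed direction, since no direction was called. At a TPM minimum of 0.5 the median IsoPct was 8.00, the splicing classes held 10.5% of member TPM, 30 members were 2-fold apart and 7 were 20 IsoPct points apart. At a minimum of 5 there were 604 members with 1.47% of TPM, a median IsoPct of 19.0, 12.04% in splicing classes, 600 with a stop over 50 nucleotides before the last junction, 5 that were 2-fold apart and 1 that was 20 points apart. Members whose version and length equal M21 numbered 434, with 0.381% of TPM, a median IsoPct of 9.52, 28 with an IsoPct of at least 50, 6.20% in splicing classes, 430 with such a stop, 7 that were 2-fold apart and 2 that were 20 points apart. With posterior means the median IsoPct was 9.96. With a lower bound of at least 1 TPM it was 12.1, with 10.9% in splicing classes and 11 members 2-fold apart, and with FPKM of at least 1 it was 11.9, with 10.9%. In hosts with at least 10 TPM the median IsoPct was 9.04, 54 members had an IsoPct of at least 50 and 1 was 20 points apart. A pseudocount of 0.1 put 38 members 2-fold apart. By number, 5.01% of members were in splicing classes. With either library left out, the members numbered 1693 to 1699, held 1.73 to 1.82% of TPM, had a median IsoPct of 9.31 to 9.55, 98 to 101 with an IsoPct of at least 50, 10.6 to 10.7% in splicing classes and 1684 to 1690 with such a stop, and differences between libraries then have no value. Of the alternatives added after seeing the data, leaving out members whose own introns were not all read gave 1.40% of TPM and 11.9% in splicing classes, and IsoPct over the M21 gene put 110 members at 50 or more, against 99. The causes were not tested. No paired analysis was possible because there is only 1 group. Depth was ample for most members (medians of 393 and 518 expected counts), while the deposited interval had a median width of 39.5% of the TPM.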

Other observations

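The gene Snhg11, known as a host gene of small nucleolar RNAs with strong expression in neurons, holds a member. In the annotation used here the coding transcript it was compared with had a mean of 399 TPM. Snhg11-205 had 23.6 and 14.9 TPM, or 4.99% and 3.89% of a gene at 473 and 383 TPM. Its own intron had 803 reads in the mm9 junction table, 11.2% of the reads at its ends. The member was named after its junction reads were seen.

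The mm9 transcript table gives some abundant members a very different level. Hspa5-204, at 251 and 181 TPM on mm10, had 0.0571 and 0.248 RPKM in the mm9 fields, and Rpl12-201, at 320 and 301 TPM, had 0.581 and 0.133 RPKM although its own intron had 564 reads. Ppia-201 had 61.6 and 53.6 RPKM. The tables differ in build, annotation and method, and which of these the differences come from was not tested.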
